A study of Mus musculus with 12 samples.

Results

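The genes described here were 8 genes of beta-2 integrin and myeloid Src-family signalling, measured in the left ventricle (LV) of the mouse heart. They were Itgb2, Itgam, Itgal, Itgax, Fgr, Lyn, Tyrobp and Fcer1g, found by symbol among the 46983 genes of the count files. The set was chosen by measured values of these same libraries, so the differences between groups below describe the genes and are no independent evidence for them. The LVs came from offspring aged 12 weeks on the inbred FVB background, with 3 LVs in each of 4 groups, taken from several litters per group. Dams were Wt and sires carried 1 copy of the Hif1a tm1jhu null allele in the whole body, so that litters held Wt and Hif1a+/- pups. Dams of the diabetic groups had been made diabetic with streptozotocin, which destroys insulin-producing beta cells, before they were mated, and dams of the non-diabetic groups were not diabetic. The groups were therefore non-diabetic Wt, diabetes-exposed Wt, non-diabetic Hif1a+/- and diabetes-exposed Hif1a+/-, and the offspring themselves received no treatment that the labels name. The comparisons ask how exposure to maternal diabetes and the loss of 1 Hif1a copy, together and apart, alter the adult heart.

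Beta-2 integrins are adhesion receptors of white blood cells, each made of the beta-2 chain, encoded by Itgb2, and 1 of several alpha chains. With them a leukocyte holds on to ICAM proteins of the vessel wall or to complement-coated particles, and binding is passed on by Src-family kinases such as Fgr and Lyn. Tyrobp (DAP12) and Fcer1g (the Fc receptor gamma chain) are small membrane adapters whose cytoplasmic ITAM, a pair of tyrosine signals, is phosphorylated by these kinases and then recruits Syk. In the heart most of these genes belong chiefly to resident macrophages and to incoming monocytes and neutrophils, not to cardiomyocytes. Lyn is also expressed in endothelium and Itgal in lymphocytes.

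The coding stretches that carry this signalling are shown because they define what the adapters and kinases share. Both ITAM stretches are 45 bases long, and the capitals mark the codons for the paired tyrosines and for the leucine that follows each of them in the motif. They were read from GENCODE M21 transcripts (GRCm38). The Tyrobp stretch spans exons 4 and 5 of the plus strand at chr7:30415670-30417382, and that of Fcer1g spans exons 4 and 5 of the minus strand at chr1:171229889-171230072.
Tyrobp: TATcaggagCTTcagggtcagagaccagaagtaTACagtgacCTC
Fcer1g: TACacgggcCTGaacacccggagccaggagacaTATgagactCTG

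The last 45 coding bases of the kinases are shown with the codon of the tail tyrosine in capitals, the residue that holds a Src-family kinase inactive when it is phosphorylated. The Fgr stretch is in exon 13 at chr4:133000299-133000343 and the Lyn stretch in exon 13 at chr4:3789900-3789944, both on the plus strand.
Fgr: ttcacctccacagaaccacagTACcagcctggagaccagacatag
Lyn: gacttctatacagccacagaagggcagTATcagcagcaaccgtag

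The alpha chains are shown from the short motif just inside the membrane (capitals), which every integrin alpha chain of this kind uses to clasp the beta chain, through the 30 bases that follow. Itgam, Itgax and Itgal were read at chr7:128117309-128117353 (exon 30), chr7:128150102-128150146 (exon 30) and chr7:127333455-127333499 (exon 31), all on the plus strand.
Itgam: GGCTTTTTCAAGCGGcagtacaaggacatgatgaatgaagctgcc
Itgax: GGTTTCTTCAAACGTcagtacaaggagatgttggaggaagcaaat
Itgal: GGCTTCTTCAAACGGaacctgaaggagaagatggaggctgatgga
Over these 45 bases Itgam and Itgax had 33 identical bases, and each of them had 29 in common with Itgal. The alpha-chain genes of the set lie on chromosome 7, Itgal at 127296260 to 127335138, Itgam at 128062640 to 128118491 and Itgax at 128129547 to 128150657, with Itgam and Itgax the closest together. Itgb2 lies on chromosome 10 (77530252 to 77565708), Tyrobp on chromosome 7 (30413760 to 30417585), Fgr and Lyn on chromosome 4 (132974095 to 133001910 and 3678115 to 3813122), all on the plus strand, and Fcer1g on the minus strand of chromosome 1 (171229572 to 171234365). Exons of Itgam overlap those of the gene model Gm49368 on the same strand, which had 0 to 6 counts per library, and exons of Lyn overlap the antisense lincRNA Gm26857.

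Each library held 16132442 to 39812939 counts. Levels are given as CPM, the count scaled to a common library size by edgeR's cpm function with TMM factors, which corrects for depth but not for gene length, so levels are compared between samples and not between genes. The libraries read the 3′ ends of transcripts. Hif1a itself had 55.7 to 71.8 CPM in non-diabetic Wt, 47.9 to 59.3 in diabetes-exposed Wt, 78.8 to 89.4 in non-diabetic Hif1a+/- and 64.8 to 81.5 in diabetes-exposed Hif1a+/-. The part of the gene that the allele lacks is not given in the sources used here and 3′ reads need not cover it, so these counts do not check the genotypes. On the sex of the offspring the sources differ, female in the sample labels and male in the design text. In 11 libraries Ddx3y, a gene of the Y chromosome, was at 76.1 CPM or more and Xist, the RNA of the inactive X, was at 5.99 CPM or less, whereas diabetes-exposed Hif1a+/- replicate 72 had 0.352 CPM of Ddx3y and 158 CPM of Xist. The main results that rest on diabetes-exposed Hif1a+/- are therefore also given without this library, among them the log2 differences, the interaction, the lists and the calls. Cardiomyocyte and ventricular markers were abundant in all 12 libraries, with 65211 to 75048 CPM over 5 cardiomyocyte genes.

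Of the 8 genes, Itgb2, Itgam, Tyrobp and Fcer1g had their highest group mean in diabetes-exposed Hif1a+/- LVs, between 1.71 and 2.45-fold above non-diabetic Hif1a+/-, with no overlap between these groups. Lyn and Itgal were close to level across the 4 groups, and Itgax and Fgr were near the limit of detection. By edgeR's quasi-likelihood test with Benjamini-Hochberg adjustment over 14706 genes and the study's threshold of an adjusted p under 0.1, none of the 8 genes passed in any comparison, nor did any other gene. By DESeq2, the tool the study names, Itgb2, Itgam and Tyrobp passed between diabetes-exposed and non-diabetic Hif1a+/-.

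**Figure D1:**
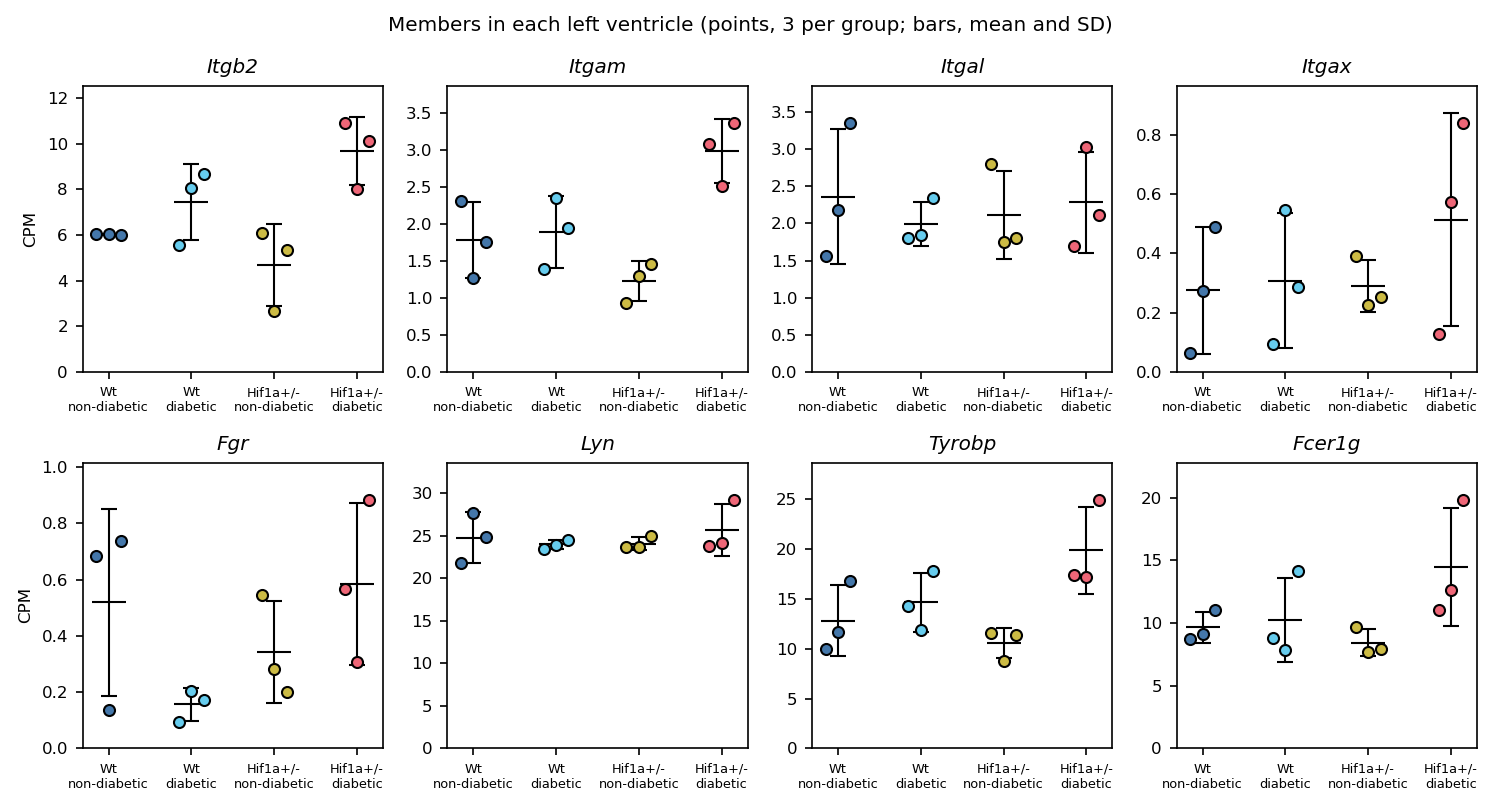
Level of each of the 8 genes (vertical axis, CPM, starting at 0) in the 12 LVs, by group (horizontal axis). Points are single LVs, the long bar is the mean and the whiskers the SD of 3 LVs. For Itgb2, Itgam, Tyrobp and Fcer1g the 3 points of diabetes-exposed Hif1a+/- all lie above the 3 of non-diabetic Hif1a+/-, whereas Lyn stays between 21.8 and 29.2 CPM in all 12.

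Itgb2, the shared beta-2 chain, was at 6.04, 6.05 and 6.01 CPM in non-diabetic Wt and at 5.54, 8.07 and 8.68 CPM in diabetes-exposed Wt. In non-diabetic Hif1a+/- it was at 6.08, 2.65 and 5.33 CPM and in diabetes-exposed Hif1a+/- at 10.9, 8.01 and 10.1 CPM. The 3 diabetes-exposed Hif1a+/- LVs lay above every non-diabetic LV of either genotype, while 2 of the 3 diabetes-exposed Wt LVs reached the lowest of them, and the lowest value of all was non-diabetic Hif1a+/- replicate 32, from 47 counts. Group means were 4.68 ± 1.80 CPM (SD, n = 3) in non-diabetic Hif1a+/-, 6.03 ± 0.0212 in non-diabetic Wt, 7.43 ± 1.67 in diabetes-exposed Wt and 9.67 ± 1.49 in diabetes-exposed Hif1a+/-. Between the Hif1a+/- groups the log2 difference was 1.03 (SE 0.25), 2.05-fold, with an adjusted p of 0.214 by edgeR and 0.0111 by DESeq2. Without replicate 32 the log2 difference was 0.77, and without replicate 72 of the diabetes-exposed group it was 1.16. Neighbouring groups in this order overlapped, and their differences had adjusted p of 0.862 to 1 by edgeR.

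Itgam encodes the alpha-M chain (CD11b), which with beta-2 forms Mac-1, the complement receptor of myeloid cells. It was at 2.30, 1.27 and 1.76 CPM in non-diabetic Wt and at 1.38, 2.35 and 1.94 in diabetes-exposed Wt. Non-diabetic Hif1a+/- LVs had 0.935, 1.30 and 1.46 CPM and diabetes-exposed Hif1a+/- LVs 3.08, 2.51 and 3.36 CPM. The diabetes-exposed Hif1a+/- values stood above all 9 others, and the other groups overlapped each other. The mean was 2.98 ± 0.433 CPM (SD, n = 3) against 1.23 ± 0.268 in non-diabetic Hif1a+/-, a log2 difference of 1.29 (SE 0.27) with an adjusted p of 0.178 by edgeR and 0.0111 by DESeq2. This was the greatest of the 8 log2 differences between the Hif1a+/- groups, and it was 1.41 without replicate 72. Against diabetes-exposed Wt the log2 difference was 0.65 (SE 0.26) and the adjusted p 0.862 by edgeR.

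The other alpha chains were different. Itgal encodes alpha-L (CD11a) of LFA-1, which is also carried by lymphocytes. Its values were 1.56, 2.18 and 3.35 CPM in non-diabetic Wt, 1.80, 1.84 and 2.34 in diabetes-exposed Wt, 2.80, 1.75 and 1.81 in non-diabetic Hif1a+/- and 1.70, 3.04 and 2.12 in diabetes-exposed Hif1a+/-. All groups overlapped, and the log2 difference between the Hif1a+/- groups was 0.07 (SE 0.31), with an adjusted p of 0.938 by edgeR. It turned to -0.17 without replicate 72, to -0.03 without non-diabetic Hif1a+/- replicate 32 and to -0.02 without replicate 44. Itgax encodes alpha-X (CD11c) of dendritic cells and some macrophages. It rested on 1 to 19 counts per library, 0.0623 to 0.839 CPM, with every group overlapping every other. Its log2 difference between the Hif1a+/- groups was 0.67 (SE 0.72). Whether a difference of the size seen for Itgam could be detected at this depth was not tested.

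Fgr and Lyn are the kinases of the set. Fgr is restricted largely to mature myeloid cells. It had 2 to 22 counts per library, which gave 0.685, 0.136 and 0.736 CPM in non-diabetic Wt, 0.0923, 0.204 and 0.171 in diabetes-exposed Wt, 0.545, 0.282 and 0.201 in non-diabetic Hif1a+/- and 0.565, 0.308 and 0.883 in diabetes-exposed Hif1a+/-. The diabetes-exposed Wt LVs were all below those of diabetes-exposed Hif1a+/-, and every other pair of groups overlapped. The log2 difference of diabetes-exposed Hif1a+/- from diabetes-exposed Wt was 1.84 (SE 0.64), and that of diabetes-exposed from non-diabetic Wt was -1.65 (SE 0.67), with adjusted p of 0.862 and 1 by edgeR. Lyn is expressed in B cells and myeloid cells and also in endothelium. It varied the least, with 21.8, 27.7 and 24.8 CPM in non-diabetic Wt, 23.4, 24.0 and 24.6 in diabetes-exposed Wt, 23.6, 23.7 and 25.0 in non-diabetic Hif1a+/- and 23.8, 24.2 and 29.2 in diabetes-exposed Hif1a+/-. All groups overlapped, and the log2 differences lay between -0.05 and 0.10, or between -0.05 and 0.14 without replicate 72. The pooled SD of log2 CPM within groups was 0.12 for Lyn, 0.71 for Fgr and 0.18 for the median gene.

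Tyrobp, the adapter of TREM2 and related receptors, had 9.96, 11.7 and 16.8 CPM in non-diabetic Wt and 14.3, 11.9 and 17.8 in diabetes-exposed Wt. It had 11.5, 8.79 and 11.4 CPM in non-diabetic Hif1a+/- and 17.4, 17.3 and 25.0 in diabetes-exposed Hif1a+/-. The diabetes-exposed Hif1a+/- LVs were above all non-diabetic LVs, by a narrow margin over non-diabetic Wt replicate 89, and they overlapped diabetes-exposed Wt. The means were 19.9 ± 4.41 CPM (SD, n = 3) and 10.6 ± 1.54 in the exposed and non-diabetic Hif1a+/- groups, a log2 difference of 0.90 (SE 0.21), 1.87-fold, with an adjusted p of 0.207 by edgeR and 0.0111 by DESeq2. Leaving out replicate 72 gave 1.00 and leaving out replicate 77, the highest LV, gave 0.71.

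Fcer1g, which carries signals of activating Fc receptors, had 8.72, 9.14 and 11.1 CPM in non-diabetic Wt, 8.77, 7.83 and 14.1 in diabetes-exposed Wt, 9.66, 7.66 and 7.94 in non-diabetic Hif1a+/- and 11.02, 12.6 and 19.8 in diabetes-exposed Hif1a+/-. The exposed Hif1a+/- LVs were above the non-diabetic Hif1a+/- LVs and overlapped both Wt groups. The log2 difference between the Hif1a+/- groups was 0.77 (SE 0.24), 1.71-fold, with an adjusted p of 0.298 by edgeR and 0.107 by DESeq2. It was 0.87 without replicate 72 and 0.48 without replicate 77, which is more than 1.5 times smaller. In LVs of 1 group the adapters tended to be high or low together. With group means removed, Tyrobp and Fcer1g had a Pearson r of 0.84 and a Spearman rho of 0.76 over the 12 libraries, the highest of the 28 pairs by r, whereas Itgb2 and Itgam had an r of 0.15. These are descriptions from libraries that each share 1 depth, with no test.

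**Figure D2:**
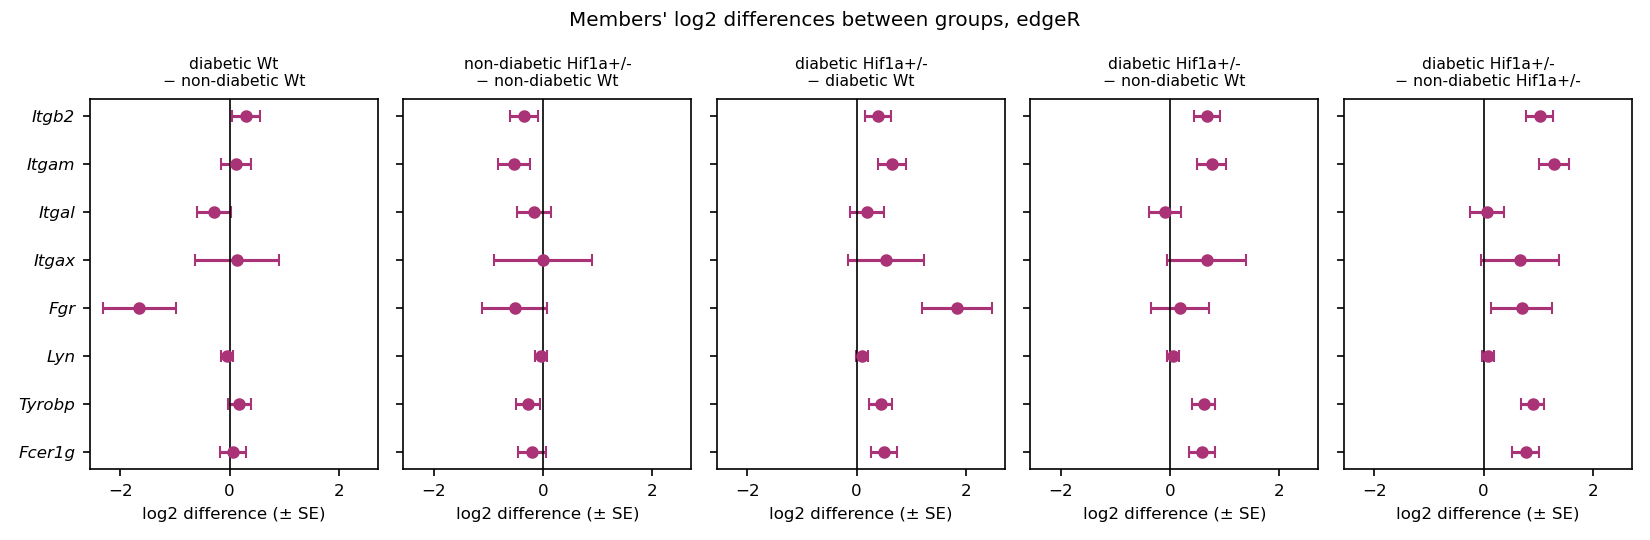
Log2 difference between groups by edgeR (horizontal axis, error bars ± SE) for each of the 8 genes (vertical axis), in 5 comparisons of 3 against 3 LVs; a value above 0 is higher in the group named first. The widest bars belong to Itgax and Fgr, and Lyn stays between -0.05 and 0.10 in all 5.

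Across the set, the comparison of diabetes-exposed with non-diabetic Hif1a+/- gave log2 differences above 0 for 8 of 8 genes, with a median of 0.74 where that of all tested genes was -0.01. Groups did not overlap and were higher for 4 of the 8 genes, beside 11.2% of all genes. DESeq2 called 3 of the 8, beside 1.44% of the 13951 genes it tested, and gave no adjusted p for Itgax and Fgr. This count was 1 without non-diabetic Hif1a+/- replicate 32 (Itgam) and 1 without diabetes-exposed Hif1a+/- replicate 77 (Itgb2). With 1 library left out, the DESeq2 total over all genes ranged from 39 to 388. edgeR called 0 of the 8 and 0% of genes, with 4 of the 8 and 1764 genes at an unadjusted p under 0.05. Without replicate 72, 7 of the 8 log2 differences were above 0 with a median of 0.93, and DESeq2 called the same 3 genes beside 1.21% of genes. edgeR then called 0 of the 8, beside 0.253%, which was 38 genes, with 4 of the 8 and 1288 genes at an unadjusted p under 0.05. The members were chosen with this contrast known, so nothing is read from these shares.

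Against non-diabetic Wt, diabetes-exposed Hif1a+/- had log2 differences of 0.68 (SE 0.24) for Itgb2, 0.76 (SE 0.26) for Itgam, 0.62 (SE 0.21) for Tyrobp and 0.58 (SE 0.24) for Fcer1g. Itgb2, Itgam and Tyrobp did not overlap between these groups and were higher, 3 of 8 genes beside 7.47% of all genes. DESeq2 called 0 of the 8, beside 0.453% of genes, and 1 of them, Tyrobp, without non-diabetic Wt replicate 89. With 1 library left out, the DESeq2 total over all genes ranged from 10 to 371. edgeR called 0 of the 8, beside 0% of genes, with 4 of the 8 and 1302 genes at an unadjusted p under 0.05. Without replicate 72 the log2 differences were 0.81, 0.87, 0.71 and 0.67 in the same order. Without replicate 77 that of Fcer1g was 0.29 and that of Tyrobp 0.43.

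Against diabetes-exposed Wt, all 8 log2 differences of diabetes-exposed Hif1a+/- were above 0, with a median of 0.47. Itgam and Fgr did not overlap and were higher, 2 of 8 genes beside 4.32% of all genes. DESeq2 called 0 of the 8, beside 0.155% of genes, and edgeR 0 of the 8, beside 0% of genes, with 2 of the 8 and 787 genes at an unadjusted p under 0.05. DESeq2 called Fcer1g when diabetes-exposed Wt replicate 80 was left out. The DESeq2 total over all genes ranged from 2 to 316 with 1 library left out. Without replicate 72 the log2 differences were 0.50 for Itgb2, 0.75 for Itgam, 0.53 for Tyrobp, 0.59 for Fcer1g and 2.11 for Fgr. Without replicate 77 they were 0.25 for Tyrobp and 0.22 for Fcer1g, and without diabetes-exposed Wt replicate 50 that of Itgb2 was 0.21.

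Each factor was also compared alone. Between diabetes-exposed and non-diabetic Wt the log2 differences were 0.30 (SE 0.25) for Itgb2, 0.12 (SE 0.27) for Itgam, 0.18 (SE 0.21) for Tyrobp and 0.07 (SE 0.24) for Fcer1g. Between non-diabetic Hif1a+/- and non-diabetic Wt they were -0.35 (SE 0.25), -0.53 (SE 0.29), -0.28 (SE 0.22) and -0.20 (SE 0.25) in the same order, and the median of the 8 was -0.24. Leaving out 1 library gave -0.22 to 0.24 for Fcer1g between the Wt groups and a value of -0.08 for Itgb2 between the non-diabetic groups, without replicate 32. In neither comparison did any member separate the groups. Over all genes, 2.14% separated upward and 3.4% downward between the Wt groups, and 2.55% and 2.26% between the non-diabetic groups. DESeq2 called 0 of the 8 in both, beside 0.0148% of genes between the Wt groups and 0.00369% between the non-diabetic groups. edgeR called 0 of the 8 and 0% of genes in both. At an unadjusted p under 0.05 edgeR gave 1 of the 8 (Fgr) and 409 genes between the Wt groups, and 0 of the 8 and 141 genes between the non-diabetic groups. These 2 comparisons and the one of diabetes-exposed Hif1a+/- with non-diabetic Wt share the same 3 control LVs.

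Whether maternal diabetes acted differently in the genotypes was tested by the interaction term. It was above 0 for all 8 genes, with log2 values of 0.73 (SE 0.35) for Itgb2, 1.17 (SE 0.39) for Itgam, 0.73 (SE 0.30) for Tyrobp, 0.70 (SE 0.34) for Fcer1g and 2.36 (SE 0.87) for Fgr. The adjusted p was 0.998 by edgeR for each, so a difference between the genotypes was not shown. edgeR called 0 of the 8 and 0% of genes, with 3 of the 8 and 371 genes at an unadjusted p under 0.05, and DESeq2 likewise called 0 of the 8 and 0% of genes, with 5 of the 8 (Itgb2, Itgam, Fgr, Tyrobp and Fcer1g) and 380 genes at an unadjusted p under 0.05. Without replicate 72 the interaction was 0.86 for Itgb2, 1.29 for Itgam, 0.82 for Tyrobp, 0.80 for Fcer1g and 2.64 for Fgr. Neither tool then called any of the 8, beside 0% of genes by edgeR and 0.0517% by DESeq2. At an unadjusted p under 0.05 were 4 of the 8 and 364 genes by edgeR, and 5 of the 8 and 341 genes by DESeq2. In the test of any difference among the 4 groups, edgeR called 0 of the 8 and 0% of genes, with 4 of the 8 and 883 genes at an unadjusted p under 0.05. DESeq2 called Itgb2, Itgam and Tyrobp there, beside 0.76% of genes, with adjusted p of 0.0565, 0.0637 and 0.0597, and of 0.0389, 0.0926 and 0.0643 without replicate 72. That count was 0 without non-diabetic Hif1a+/- replicate 32, without replicate 44 of the same group or without diabetes-exposed Hif1a+/- replicate 77. It was 1 without non-diabetic Wt replicate 42, without non-diabetic Hif1a+/- replicate 14 or without diabetes-exposed Hif1a+/- replicate 66. The DESeq2 total over all genes in this test ranged from 74 to 314 with 1 library left out.

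Macrophage markers, like Itgb2, Itgam, Tyrobp and Fcer1g, were higher in diabetes-exposed than in non-diabetic Hif1a+/-. The summed level of 7 markers (Adgre1, Cd68, Csf1r, Mrc1, C1qa, Cd163 and Lyve1) was 167 to 214 CPM in non-diabetic Wt, 173 to 274 in diabetes-exposed Wt, 122 to 190 in non-diabetic Hif1a+/- and 237 to 358 in diabetes-exposed Hif1a+/-. All 7 were higher without overlap in diabetes-exposed than in non-diabetic Hif1a+/-, beside 11.2% of all genes, with a median log2 difference of 0.87. DESeq2 called 3 of the 7, beside 1.44% of the genes it tested, and edgeR 0, beside 0%. By edgeR 7 of the 7 had an unadjusted p under 0.05, beside 12% of all genes. Without replicate 72 the sum in diabetes-exposed Hif1a+/- was 282 to 358 CPM and the median log2 difference 0.96. DESeq2 then called 4, beside 1.21% of genes, and edgeR 0, beside 0.253%. Non-diabetic Hif1a+/- replicate 32 had the lowest sum and diabetes-exposed Hif1a+/- replicate 77 the highest, as for Tyrobp. In bulk LV, more cells of a type and more RNA per cell cannot be told apart. The part of macrophage number in the results was not tested. By staining of LV sections, the study counted significantly more macrophages only in diabetes-exposed Wt. That count of cells does not follow the order of these RNA sums.

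**Figure D3:**
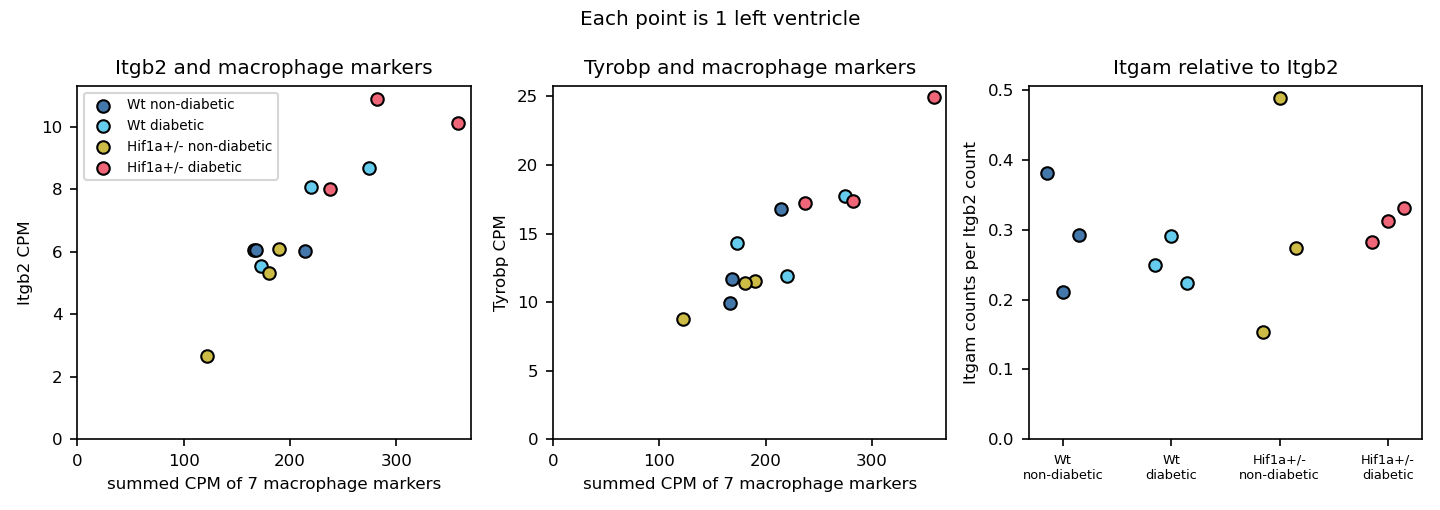
Left and middle, CPM of Itgb2 and of Tyrobp (vertical axes) against the summed CPM of 7 macrophage markers (horizontal axes), 1 point per LV and 1 colour per group. Right, counts of Itgam per count of Itgb2 in each LV, by group. The LV with the lowest marker sum (122 CPM) also has the lowest Itgb2 (2.65 CPM) and Tyrobp (8.79 CPM), and the Itgam ratio overlaps between groups.

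Many markers of other leukocytes were near 0. All 4 NK cell markers and 3 of 4 B cell markers were under 0.5 CPM in every library, as were Ly6g and Mpo of neutrophils, Cd3d and Cd8a of T cells, Ly6c2 of monocytes, and 4 of 6 mast cell markers, among them Fcer1a, which had 0 counts in all 12. The 4 monocyte markers summed to 56.9 to 87.2 CPM over the 12 libraries, most of it Fn1, a matrix gene that other cells also express. The 4 dendritic cell markers summed to 3.80 to 7.22 CPM, most of it Clec9a. The 6 neutrophil markers summed to 1.82 to 19.4 CPM in non-diabetic Wt, 2.72 to 3.74 in diabetes-exposed Wt, 1.41 to 2.41 in non-diabetic Hif1a+/- and 4.40 to 8.39 in diabetes-exposed Hif1a+/-. The highest sum was that of non-diabetic Wt replicate 25, in which Itgam was the highest and Tyrobp the lowest of its group. The 6 adventitial and epicardial markers summed to 173 to 384 CPM in diabetes-exposed Hif1a+/- and to 95.6 to 138 CPM in the other 9 LVs. Pi16 alone averaged 168 ± 89.9 CPM against 57.6 ± 2.60 in non-diabetic Hif1a+/- (SD, n = 3). Log2 differences between the Hif1a+/- groups were taken for the markers that passed the filter on low counts. Those of 3 of 3 neutrophil, 5 of 6 adventitial and epicardial, 4 of 4 platelet, 3 of 3 monocyte and 3 of 3 T cell markers were above 0. DESeq2 called 0, 3, 1, 0 and 0 of them higher, beside 1.44% of all genes in both directions. Their median log2 differences were 2.75, 0.81, 0.53, 0.25 and 0.43 in the same order, with that of the neutrophil markers the greatest. By edgeR 2, 3, 1, 0 and 0 had an unadjusted p under 0.05, beside 12% of all genes. Higher without overlap were 2, 3, 1, 0 and 0, beside 11.2% of all genes. Without replicate 72 the neutrophil median was 2.93. Also above 0 were 1 of 2 dendritic cell, 0 of 1 mast cell, 0 of 3 atrial, 2 of 5 cardiomyocyte and 2 of 2 left ventricular markers. None of these was called by DESeq2 or edgeR, and 0 of them had an unadjusted p under 0.05. Without replicate 72 the count above 0 was 3 of 6 for adventitial and epicardial, 1 of 3 for T cell and 4 of 5 for cardiomyocyte markers. DESeq2 then called 3 of the adventitial and epicardial markers, beside 1.21% of genes, and edgeR 2, beside 0.253%. The part of these cells in the results was not tested.

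The share of the alpha chains against the beta chain was followed within libraries. Itgam counts per Itgb2 count were 0.211 to 0.381 in non-diabetic Wt, 0.224 to 0.291 in diabetes-exposed Wt, 0.154 to 0.489 in non-diabetic Hif1a+/- and 0.283 to 0.332 in diabetes-exposed Hif1a+/-. The ratios overlapped between all groups, so that Itgam and Itgb2 did not separate the groups relative to each other. Itgal counts per Itgb2 count were 0.156 to 0.379 in diabetes-exposed Hif1a+/- and 0.340 to 0.660 in non-diabetic Hif1a+/-, which overlapped in the range of 0.340 to 0.379.

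The wider pathway was read from 65 further genes in 5 lists, of which 59 passed the filter on low counts. Between diabetes-exposed and non-diabetic Hif1a+/-, 47 of the 59 log2 differences were above 0 and the median was 0.47, beside -0.01 over all genes. edgeR called 0 of the 59, with 27 at an unadjusted p under 0.05 beside 12% of all genes, and DESeq2 called 12 higher and 1 lower beside 1.44% of all genes in both directions. These lists were drawn up with earlier results of the same libraries known, so the counts are a description. Without replicate 72, 43 of the 59 were above 0 with a median of 0.55. edgeR then called 2, Fcgr2b and Cd300ld, beside 0.253% of genes. DESeq2 called 10 higher and 0 lower, beside 1.21% of genes, with C3 added and Blk, Fyb and Hcls1 among those no longer called. Against non-diabetic Wt, edgeR called 0 (24 at an unadjusted p under 0.05) and DESeq2 called Clec4n, the gene of Dectin-2, beside 8.85% of all genes at that p and 0.453% called by DESeq2. Without replicate 72 DESeq2 called Clec4n, Fcgr2b and Pirb there, beside 0.597% of genes. With all 12 libraries no gene of the lists was called by either tool in the comparison of the non-diabetic groups, of the Wt groups or of the diabetes-exposed groups. Here edgeR gave 0, 1 and 11 genes at an unadjusted p under 0.05, beside 0.959%, 2.78% and 5.35% of all genes. Without replicate 72 DESeq2 called Cd300ld between the diabetes-exposed groups, beside 0.239% of genes.

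The lists are given by role, and a difference between lists was not tested. Of 14 measured receptors that signal through ITAM adapters or oppose them through ITIMs, 14 had log2 differences above 0 between the Hif1a+/- groups (median 0.73), and DESeq2 called Clec4n, Fcgr2b, Pirb and Cd300ld higher. Clec4n, a Fcer1g-coupled receptor for fungal mannans, averaged 5.10 ± 0.973 CPM in diabetes-exposed and 2.37 ± 0.303 in non-diabetic Hif1a+/- (SD, n = 3), a log2 difference of 1.11 (SE 0.25) with an adjusted p of 0.191 by edgeR and 0.0126 by DESeq2. The inhibitory receptors Fcgr2b and Pirb had log2 differences of 0.76 (SE 0.21) and 0.81 (SE 0.24), with adjusted p of 0.266 and 0.29 by edgeR and 0.059 and 0.0915 by DESeq2. Activating and inhibitory receptors were thus both among those that DESeq2 called.

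Of 16 genes downstream of the kinases, 13 had log2 differences above 0 (median 0.59) and DESeq2 called Sla, Hcls1, Dok2 and Vav1 higher. Sla, an adapter that dampens receptor signalling, had a log2 difference of 1.28 (SE 0.32), Hcls1, a cortactin relative of blood cells, 0.58 (SE 0.15), and Dok2, an inhibitory docking protein, 0.87 (SE 0.24). Their adjusted p was 0.22, 0.22 and 0.266 by edgeR and 0.0321, 0.0359 and 0.0751 by DESeq2. Syk, the kinase that ITAMs recruit, averaged 39.2 ± 2.20 CPM in diabetes-exposed and 35.9 ± 2.20 in non-diabetic Hif1a+/- (SD, n = 3).

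Of 12 measured genes among the other Src-family kinases and their control, 7 were above 0 (median 0.15), and DESeq2 called 2 higher and 1 lower. Ptprj, a phosphatase that can activate these kinases, had a log2 difference of 0.74 (SE 0.18), with adjusted p of 0.215 by edgeR and 0.0228 by DESeq2. Blk, a kinase best known from B cells, had one of -1.02 (SE 0.27), with adjusted p of 0.235 by edgeR and 0.0385 by DESeq2. At an unadjusted p under 0.05 edgeR gave 4 of the 12 higher and 2 lower, beside 12% of all genes. Src and Fyn, which most tissues express, differed by less than 1 SD of the more variable group. They were named after their values were seen and do not stand for the other kinases of the list. Src was at 8.20 ± 2.24 CPM against 7.58 ± 0.465 and Fyn at 55.5 ± 2.23 against 58.2 ± 7.12 (SD, n = 3).

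Of the 6 partners and ligands, 5 were above 0 (median 0.10) and DESeq2 called 1, Icam1, the endothelial ligand of LFA-1 and Mac-1. Icam1 averaged 25.5 ± 6.47 CPM against 15.6 ± 0.635 (SD, n = 3), a log2 difference of 0.71 (SE 0.18) with an adjusted p of 0.22 by edgeR and 0.0256 by DESeq2. C3, whose fragment iC3b is bound by Mac-1, had a log2 difference of 1.26 (SE 0.32) with adjusted p of 0.22 by edgeR and 0.121 by DESeq2, and Jam3 one of 0.15 (SE 0.16). Itgad, the remaining alpha chain of the family, averaged between 0.976 and 1.24 CPM in the 4 groups. Of the 11 measured genes of integrin activation, 8 were above 0 (median 0.10) and DESeq2 called Fyb, the adapter ADAP, with a log2 difference of 0.93 (SE 0.24) by edgeR. Fermt3 (kindlin-3) and Apbb1ip (RIAM), which switch beta-2 integrins on in leukocytes, had log2 differences of 0.67 (SE 0.23) and 0.83 (SE 0.26) and were not called by DESeq2 or edgeR.

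**Figure D4:**
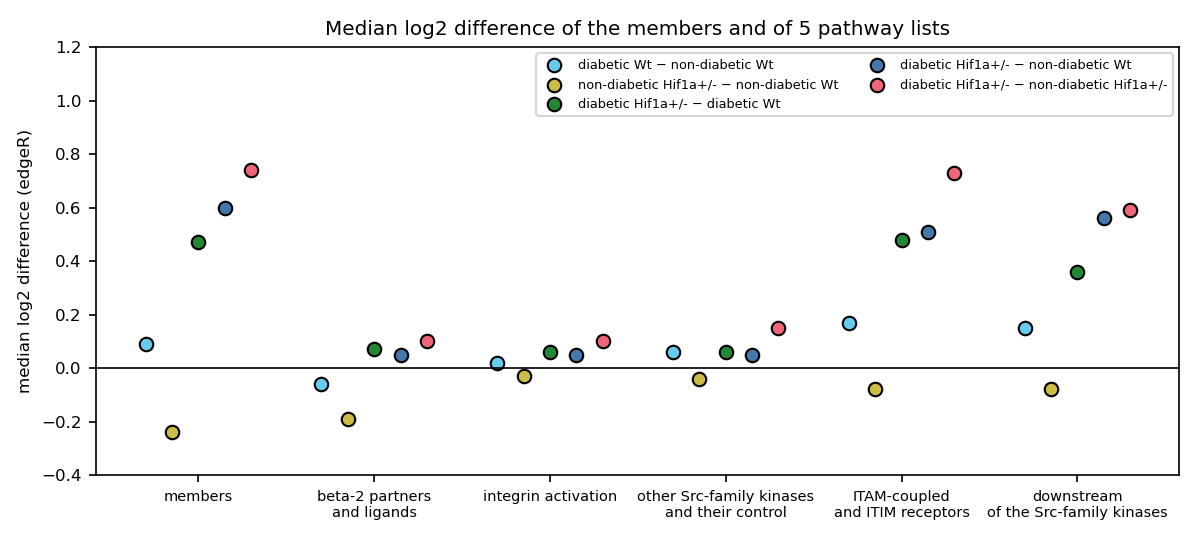
Median log2 difference by edgeR (vertical axis) of the 8 genes and of the genes of 5 pathway lists that passed the filter (horizontal axis), in 5 comparisons between groups (colours). The medians of the receptor list (0.73) and of the list downstream of the kinases (0.59) between the Hif1a+/- groups are near that of the 8 genes (0.74), and those of the other 3 lists are 0.10 to 0.15.

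The genes most like the set were found from the mean of the 8 z-scored log2 CPM values over the 12 libraries, compared with 14698 other genes, as a description with no test. The closest were Spi1 (r = 0.97), which encodes the myeloid transcription factor PU.1, Myo1f (0.96), a myosin of immune cells, and Csf1r (0.95), the receptor for the macrophage growth factor. Tmem176b (0.94), Agpat2, Nrros, Nckap1l, Nfam1, Dab2 and Coro1a (each 0.93) followed. With group means removed, so that only differences among LVs of the same group were left, Myo1f (0.99), Spi1 (0.97), Csf1r (0.96), Tgfbi (0.96), Sash3 (0.94), C1qb (0.94), Nckap1l, Slc35e3, Sirpa and A430093F15Rik (each 0.93) were closest. Spi1, Myo1f, Csf1r and Nckap1l were in both lists. Of the macrophage markers, Cd163 and Lyve1 were unlike the set within groups, with r of 0.04 and -0.09. With group differences kept, their r was 0.36 and 0.34. The members themselves also differed in likeness to their mean, of which each is a part. Within groups Itgam had an r of 0.18, Fgr 0.54, Lyn 0.55, and Itgb2 and Itgal 0.57 each. Itgax had 0.75, Fcer1g 0.83 and Tyrobp 0.84. The points of each correlation share library and depth.

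The proximal promoters that the RefSeq table (GRCm38.p6) held were those of 4 of the 8 genes, Itgam, Itgax, Fgr and Fcer1g. The letters AGGAAG are 1 longer form of GGAA, the core that ETS factors such as PU.1 bind. In the 250 bases before the start, AGGAAG or its complement on the other strand was found for Itgam and Fcer1g. It was not found for Itgax and Fgr, whose promoters do hold the shorter GGAA. Of all 32851 promoters of this length, 29.5% held AGGAAG or its complement. The promoters of Itgam, 83 to 78 bases before the start, and of Fcer1g, 44 to 39 bases before it, are shown because these 2 genes separated the Hif1a+/- groups, with the match in capitals, at chr7:128062390-128062639 (plus strand) and chr1:171234350-171234599 (minus strand).
Itgam: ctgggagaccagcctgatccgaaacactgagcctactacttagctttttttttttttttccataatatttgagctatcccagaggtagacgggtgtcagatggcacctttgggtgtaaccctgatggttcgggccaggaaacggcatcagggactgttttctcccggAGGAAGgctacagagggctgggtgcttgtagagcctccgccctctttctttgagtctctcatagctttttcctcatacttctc
Fcer1g: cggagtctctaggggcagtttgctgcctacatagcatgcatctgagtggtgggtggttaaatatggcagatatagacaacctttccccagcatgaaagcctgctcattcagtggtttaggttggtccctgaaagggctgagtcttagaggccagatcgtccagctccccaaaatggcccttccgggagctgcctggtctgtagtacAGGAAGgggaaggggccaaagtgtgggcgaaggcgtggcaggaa
The letters ACGTG, a core of the hypoxia response element bound by HIF-1, were in none of the 4 promoters on either strand and in 16.6% of all. The variant GCGTG was in those of Itgax, Fgr and Fcer1g and in 28.2% of all. A match in letters does not show that a factor binds there.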

How the data were processed

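LV RNA of 12 offspring was sequenced by the authors as single-end 3′-seq libraries. Reads were trimmed with Trimmomatic, cleared of ribosomal and mitochondrial reads, aligned with STAR 2.5.2b to GRCm38 and counted per gene with htseq-count, as the methods and the submitters' processing notes say. The deposited counts are whole reads per gene without normalization. Reads that aligned to several places, 12.37% to 17.02% per library, are on no gene, and 5 tally lines were left out. The deposited normalized counts were not used. Groups came from the labels, and replicates are named by the numbers in the titles. Symbols and positions came from GENCODE M21, which matched 46488 of 46983 identifiers.

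edgeR 4.0.16 (R 4.3.3) fitted the 12 libraries together, with TMM scaling, its filter on low counts (14706 genes, the 8 members among them) and quasi-likelihood tests with 8 residual degrees of freedom. The biological coefficient of variation was 13.7%. P values were adjusted by Benjamini-Hochberg over all tested genes, with a threshold of 0.1. The p values measure the spread between the 3 LVs of a group. No pair of libraries in a group was counted as 1 sample, with a chi-square per gene of 5.54 to 47.25 between their counts. DESeq2 1.42.0, limma-voom 3.58.1 with sample quality weights and other filters, scalings and thresholds were alternatives. Leaving out replicates in DESeq2, and the lists without replicate 72, were added after the data had been seen. On simulated counts for diabetes-exposed Hif1a+/- against non-diabetic Wt over 14706 genes, edgeR recovered 41 of 50 genes changed by 2-fold. It recovered 18 of 50 changed by 1.5-fold, and 16 unchanged genes were called. The changed genes were drawn at random from all tested genes, so this recovery need not hold for the members. The within-group SD was 0.38 for Itgb2, 0.33 for Itgam, 0.30 for Tyrobp and 0.12 for Lyn, against 0.18 for the median gene.

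The members and lists were chosen with earlier results of these data known. Named genes were the 8 members, the 3 genes of each pathway list with the smallest p for any difference among the groups, the 10 other genes most like the members' mean with and without group differences, and markers beside a result. Src, Fyn, Syk, Itgad, Vav1 and Cd300ld were named after their values were seen. The log2 CPM values for likeness used a prior count of 2. One listed symbol, Lilrb4a, matched no gene. One gene that this rule names is not reported here.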

Additional observations from a re-analysis of the deposited data

How the results depend on the processing

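edgeR called 0 of the 8 genes in all 7 tests, and also with DESeq2 size factors, a minimum of 10 counts in every library, a robust fit, an adjusted p under 0.05, or 1 library left out (0 to 0 in each of the 7). Without the filter on low counts it called 4 between diabetes-exposed and non-diabetic Hif1a+/-, 3 for diabetes-exposed Hif1a+/- against non-diabetic Wt and 4 for any difference. With only the groups compared in the fit it called 2 between the Hif1a+/- groups. DESeq2 called 3 between the Hif1a+/- groups and 3 for any difference, and limma-voom with sample quality weights called 4 between the Hif1a+/- groups. Over all genes, edgeR called 0 in each test, while between the Hif1a+/- groups DESeq2 called 201, edgeR without the filter 592, limma-voom 937, edgeR with only those groups 101 and edgeR without diabetes-exposed Hif1a+/- replicate 72 called 38. In the other comparisons DESeq2 called at most 130 and edgeR without the filter at most 689, both for any difference. The cause of these differences was not tested. With 1 library left out, the DESeq2 count of members was 1 to 4 between the Hif1a+/- groups and 0 to 4 for any difference. That count was 0 to 1 for diabetes-exposed Hif1a+/- against non-diabetic Wt and against diabetes-exposed Wt. It stayed at 0 in the comparison of the Wt groups, of the non-diabetic groups and in the interaction. Over all genes DESeq2 then called 39 to 388, 74 to 314, 10 to 371, 2 to 316, 0 to 15, 0 to 5 and 0 to 12 in the same order. Of 745 log2 differences of single members under these alternatives, 745 were within 1 within-group SD of the reported value. This margin is wide, as leaving out 1 of 3 LVs moves a group mean by less than that group's SD. The count is therefore no measure of robustness. Fcer1g between the Hif1a+/- groups, at 0.77 with all libraries and 0.48 without replicate 77, is within the margin. Of the 745, 24 had the other sign, all for values that no test called, and 21 of these with a library left out. Itgb2, Tyrobp and Itgam kept a log2 difference above 0.70 between the Hif1a+/- groups throughout. No paired analysis was possible because the labels give the groups no replicate number in common. Depth limited Itgax and Fgr, which had at most 19 and 22 counts in a library.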
